A study of Mus musculus with 12 samples.

Results

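PF-044 is an antagonist of EP2, the prostaglandin E2 receptor encoded by Ptger2, and the comparison described here is its effect on the peritoneal macrophages of aged mice. The treated samples were those of 3 mice aged 20 to 22 months that were dosed by oral gavage with PF-044 (2.5 mg/kg each day) over 6 weeks, and the controls were those of 3 mice aged 20 to 22 months whose agent is given as none. These 6 samples belong to a series of 12, which also holds 3 young mice (3 to 4 months) given PF-044 at the same dose and time and 3 young untreated mice. The samples carry separate mouse numbers within each group, and the series states 3 mice per group. The sources used here do not state the strain or sex of the animals or whether the untreated mice received a vehicle. Total RNA was assayed by NanoString nCounter, a direct count of barcoded probe and transcript complexes without amplification, and values are normalised levels on the log2 scale. Of 1448 genes in the table, the 1161 above the floor of 20 on the linear scale in at least 1 of the 6 aged samples are the genes of this comparison.

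Prostaglandin E2 is made from arachidonic acid by the cyclooxygenases and a terminal synthase, and signals through the receptors EP1 to EP4. EP2 couples to the stimulatory G protein and raises cyclic AMP (cAMP), which acts through protein kinase A, the exchange factors Epac and the transcription factor CREB. In myeloid cells, EP2 signalling is known to change cytokine output, phagocytosis and energy metabolism. The peritoneal cavity holds large resident macrophages, which depend on the transcription factor GATA6, smaller macrophages derived from monocytes, and many B cells, with fewer T, NK and mast cells.

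The 6 aged samples were not equally sensitive. The number of genes at the floor was 427, 440 and 467 in the aged PF-044 mice, against 333, 741 and 527 in aged untreated mice 1, 2 and 3. In aged untreated mouse 2 the lowest value that fell on the counting steps of its sample was 75.94, 93.03 or 91.42 on the linear scale, depending on which of 3 sets of genes was read, against 23.01 to 36.51 in aged untreated mice 1 and 3. A gene at the floor in this mouse may have had any level below its set's value. It held 454 of the 1161 genes at the floor, 187 of them in this mouse only among the 6. Aged untreated mouse 1 was unlike the others in another way, with 63 genes above the floor in it alone of all 12 samples (the other samples had 0 to 3 such genes). Pearson correlation over the tested genes was at least 0.991 among the aged PF-044 mice and at least 0.988 among the aged untreated mice, and between 0.921 and 0.946 across the groups. Counts of listed genes below use all samples, and those without aged untreated mouse 2 are given where they differ. Each is to be read beside the shares over all tested genes, 25.7% higher and 15.2% lower.

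The labelled cell type was checked against marker lists. Of the general macrophage markers, 7 of 7 in the table lay above the floor in each aged PF-044 mouse, against 5 of 7 in aged untreated mouse 2 and 7 in mice 1 and 3. Their summed linear level was 7086 to 7879 in aged PF-044 mice and 4735 to 5423 in aged untreated mice. Markers of other cells were present as well. The 7 B cell markers summed to 25380 to 28770 in aged PF-044 mice, against 44630 to 50140 in aged untreated mice. Ms4a1, the list's highest gene, made up most of each of these sums. The 19 T cell markers summed to 3623 to 3831 in aged PF-044 mice and 2879 to 3301 in aged untreated mice. Ctla4, the called gene of that list that fell, made up most of the T cell sum in each aged untreated mouse. The 10 NK and cytotoxic genes summed to 1410 to 1522 in aged PF-044 mice and 679.2 to 963.5 in aged untreated mice. Mast cell and basophil markers (10 genes) summed to 6469 to 9291 in aged PF-044 mice and 5740 to 6417 in aged untreated mice. None of these 4 pairs of ranges overlapped. Neutrophil markers did overlap, at 509.2 to 608 in aged PF-044 mice and 315.9 to 598.8 in aged untreated mice. Foxp3 and Tbx21 of the T cell list and Ncr1 and Gzma of the NK list, named after their values were seen, lay at the floor in all 6 aged mice. Most genes of both lists did not: 17 of 19 T cell markers lay above it in each aged PF-044 mouse and 7 to 17 in aged untreated mice. For the 10 NK and cytotoxic genes the numbers were 7 or 8 and 3 to 8. In RNA of a whole cell suspension, fewer cells of a type and less RNA per cell cannot be told apart. The part that cell composition has in the results below was not tested.

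**Figure D1:**
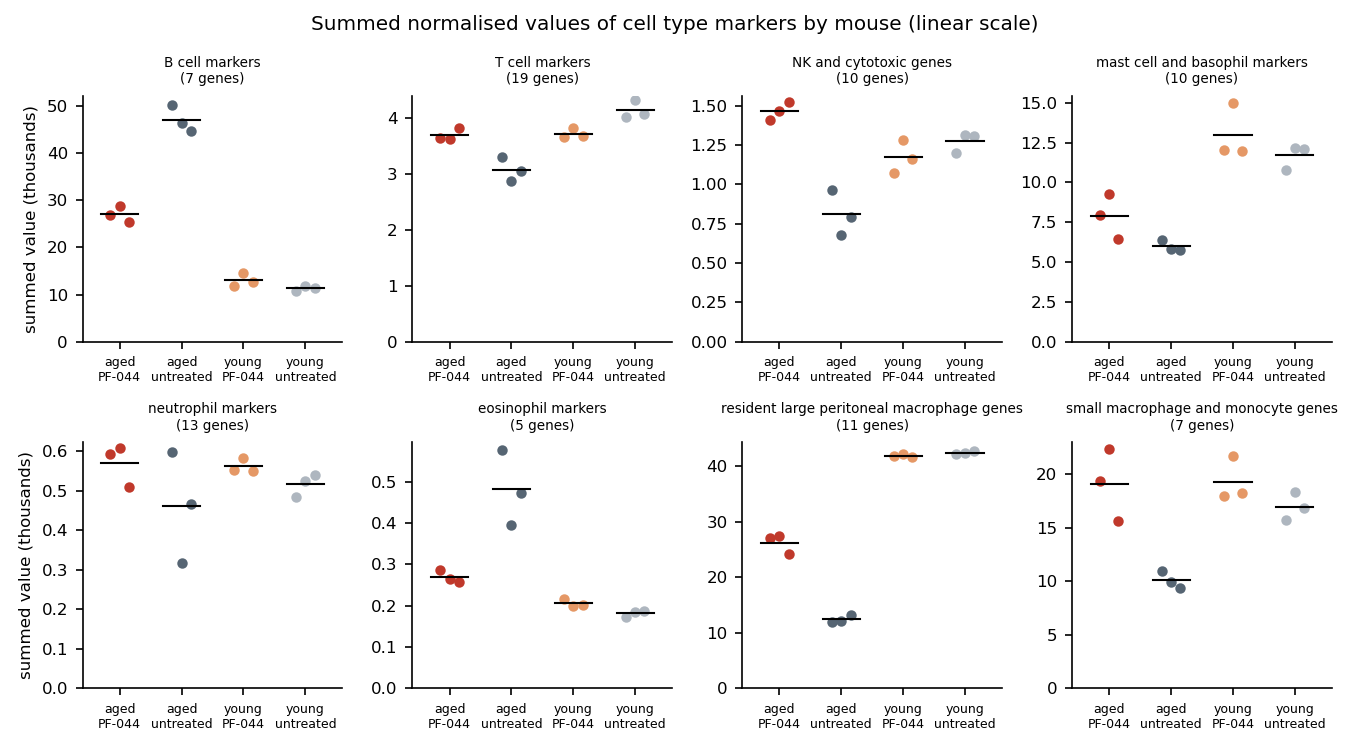
Summed linear values of 8 marker lists in each mouse (points; lines are group means), from left to right aged PF-044, aged untreated, young PF-044 and young untreated. The B cell sum, in aged mice mostly Ms4a1, lies lower, and the resident and small macrophage sums higher, in aged PF-044 mice than in aged untreated mice. In aged mice the small macrophage sum is mostly Retnla. Fn1 and Alox15 make up most of the resident sum in aged PF-044 mice.

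Which genes differed between aged PF-044 and aged untreated mice was asked first for the whole table. Of 1190 tested genes, 487 (40.9%) passed limma's moderated test at an adjusted p of 0.05, 306 higher (25.7%) and 181 lower (15.2%) in aged PF-044 mice. The median change over all tested genes was 0.02 log2 units, and the median absolute change of the genes that passed was 0.618, beside a median SE of 0.132. The 3 PF-044 mice lay wholly above or below the 3 untreated mice for 545 genes (45.8%), 334 above and 211 below. Without aged untreated mouse 2, 512 genes (43%) passed, 292 higher and 220 lower. Both fits called 446 genes in the same direction, 278 higher and 168 lower, and 0 in opposite directions.

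Large rises depended on the sample with the raised detection limit. With all samples, 78 called rises and 29 called falls exceeded 2-fold, and 51 of these rises but 1 of the falls were genes at the floor in aged untreated mouse 2. Without that mouse, 45 rises and 39 falls exceeded 2-fold. Without aged untreated mouse 1, 353 genes were called higher and 157 lower, with 109 rises and 25 falls over 2-fold. The balance of directions also moved with the scaling: higher calls made up 62.8% of all calls in the deposited values, 48.1% after centring each sample on the median over those genes that no sample had at the floor (median centring below), 34.9% after centring on the reference genes Gusb, Gapdh, Hprt and Pgk1, and 55% after quantile normalization. Those 3 scalings put the median change of all tested genes at -0.11, -0.21 and -0.04, against 0.02 in the deposited values. Of the reference genes, Gusb and Gapdh were themselves called higher, by 0.76 and 0.38 log2 units, though Gapdh did not pass without aged PF-044 mouse 1.

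**Figure D2:**
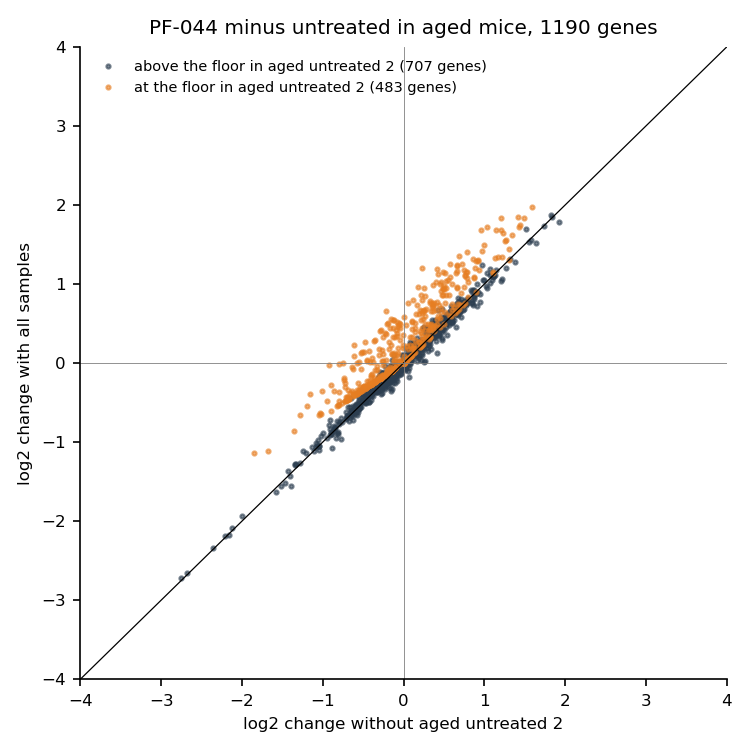
Log2 change between aged PF-044 and aged untreated mice with all samples (vertical) against the change without aged untreated mouse 2 (horizontal), for 1190 genes. Genes at the floor in that mouse (orange) lie above the line of equality where the other untreated mice measured them; the other genes (dark) follow it.

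Fn1, which encodes the matrix protein fibronectin, measured 12.94, 12.87 and 12.80 in aged PF-044 mice, against 10.84, 11.01 and 11.23 in aged untreated mice. The groups were far apart relative to the spread within each, and the change was 1.85 log2 units (SE 0.09, limma adjusted p = 1.7e-07), or 3.59-fold. Without aged untreated mouse 2 it was 1.84. Ccl24, a chemokine that attracts eosinophils and is raised by interleukin-4, measured 10.96, 11.18 and 10.71 in aged PF-044 mice, against 9.29, 8.99 and 8.97 in aged untreated mice, a rise of 1.87 (SE 0.11, adjusted p = 2.9e-07). Thbs1, thrombospondin-1, an adhesive glycoprotein that activates TGF-beta, measured 11.10, 11.24 and 10.91 in aged PF-044 mice, against 8.98, 9.57 and 9.32 in aged untreated mice (change 1.79, SE 0.12). Pf4, the chemokine platelet factor 4, measured 9.34, 9.47 and 9.04 in aged PF-044 mice and 7.63, 7.54 and 7.47 in aged untreated mice. Pf4 rose by 1.74 (SE 0.10, adjusted p = 2.9e-07). The groups did not overlap for any of these 4 genes, as for 545 of all 1190 tested genes (45.8%). Genes named here and below for the size or p of their change were chosen from these same values. Separation of their groups is thus no separate evidence of a change.

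Alox15, the 12/15-lipoxygenase that resident peritoneal macrophages carry, measured 12.94, 12.90 and 12.81 in aged PF-044 mice, against 11.14, 11.40 and 11.53 in aged untreated mice. It rose by 1.53 (SE 0.09, limma adjusted p = 3.3e-07), with every PF-044 mouse above every untreated mouse. Fabp5, a fatty acid binding protein, measured 9.21, 9.41 and 8.84 in aged PF-044 mice and 7.60, 7.88 and 7.43 in aged untreated mice (change 1.51, SE 0.14). Retnla, also called Fizz1 and a marker of alternative activation, measured 13.76, 14.02 and 13.39 in aged PF-044 mice, against 12.56, 12.39 and 12.27 in aged untreated mice, a rise of 1.32 (SE 0.16). Il21r, the interleukin-21 receptor, measured 8.69, 8.42 and 8.61 in aged PF-044 mice and 7.24, 6.51 and 6.87 in aged untreated mice, and rose by 1.70 (SE 0.15), or 1.51 without aged untreated mouse 2. Klrd1, which encodes the NK cell receptor subunit CD94, measured 8.83, 8.98 and 8.92 in aged PF-044 mice, against 7.69, 7.42 and 6.97 in aged untreated mice (change 1.55, SE 0.16).

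A further 6 of the 15 largest rises were genes at the floor in aged untreated mouse 2, and their size rests partly on how far below its detection limit that mouse lay. Insr, the insulin receptor, measured 7.14, 6.94 and 7.03 in aged PF-044 mice, against 5.47, the floor and 5.77 in aged untreated mice. All 3 PF-044 values were above all 3 untreated values, and the change was 1.42 without aged untreated mouse 2, against 1.85 with it. The corresponding values were 1.49 and 1.83 for Ccr6, a chemokine receptor of lymphocytes, 1.44 and 1.75 for Cd8a, the T cell coreceptor, 1.43 and 1.72 for Clec7a, the beta-glucan receptor dectin-1, and 1.34 and 1.62 for Emp1, a membrane protein. With all samples raised to a common floor of 100, Cd8a, Clec7a and Emp1 no longer passed.

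Falls were larger than rises at the top of the ranking, and aged untreated mouse 2 measured every one of the 15 genes named here above its floor. Ccl22, a chemokine for type 2 and regulatory T cells, measured 4.54, 4.99 and 4.74 in aged PF-044 mice, close to the floor, against 7.50, 7.40 and 7.54 in aged untreated mice. Its change was -2.72 (SE 0.16, limma adjusted p = 3.3e-07), a 6.59-fold fall. Hspb1, the small heat shock protein HSP27, measured 4.93, 4.76 and 4.59 in aged PF-044 mice, against 7.42, 7.36 and 7.47 in aged untreated mice, and fell by 2.66 (SE 0.17). Serinc5, a membrane protein of the serine incorporator family, measured 6.95, 6.94 and 7.22 in aged PF-044 mice and 9.32, 9.34 and 9.47 in aged untreated mice. It fell by 2.34 (SE 0.11, adjusted p = 1.7e-07). Il10, the anti-inflammatory cytokine interleukin-10, measured 5.84, 5.88 and 5.88 in aged PF-044 mice, against 8.11, 8.09 and 7.94 in aged untreated mice. The mice of each group lay close together, with no overlap, and Il10 fell by 2.18 (SE 0.13, adjusted p = 4e-07).

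Other named falls were of receptors and cytokines. Fcgr4, an activating Fc receptor for IgG, measured 8.88, 8.99 and 8.70 in aged PF-044 mice and 10.38, 10.47 and 10.37 in aged untreated mice (change -1.55, SE 0.15). Cd36, a scavenger receptor for lipids, measured 10.61, 10.82 and 10.10 in aged PF-044 mice, against 12.03, 11.97 and 11.80 in aged untreated mice (change -1.42, SE 0.19). Il12a, the p35 subunit of interleukin-12, fell by 1.55 (SE 0.21, limma adjusted p = 0.00012). Crip1, a LIM domain protein, fell by 1.28, and Ly6c1, a surface protein of monocytes and other cells, fell by 1.29. Il1b, the inflammasome substrate interleukin-1 beta, measured 5.81, 5.59 and 5.06 in aged PF-044 mice, against 7.23, 7.23 and 6.90 in aged untreated mice, and fell by 1.63 (SE 0.22, adjusted p = 0.00012). Its 3 aged untreated values carry a limit: on the linear scale 11904 of 11921 values above the floor (99.9%) were whole multiples of a step set by the sample and gene set, within 0.008, and these 3 were not. The sources used here do not say how they were made.

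**Figure D3:**
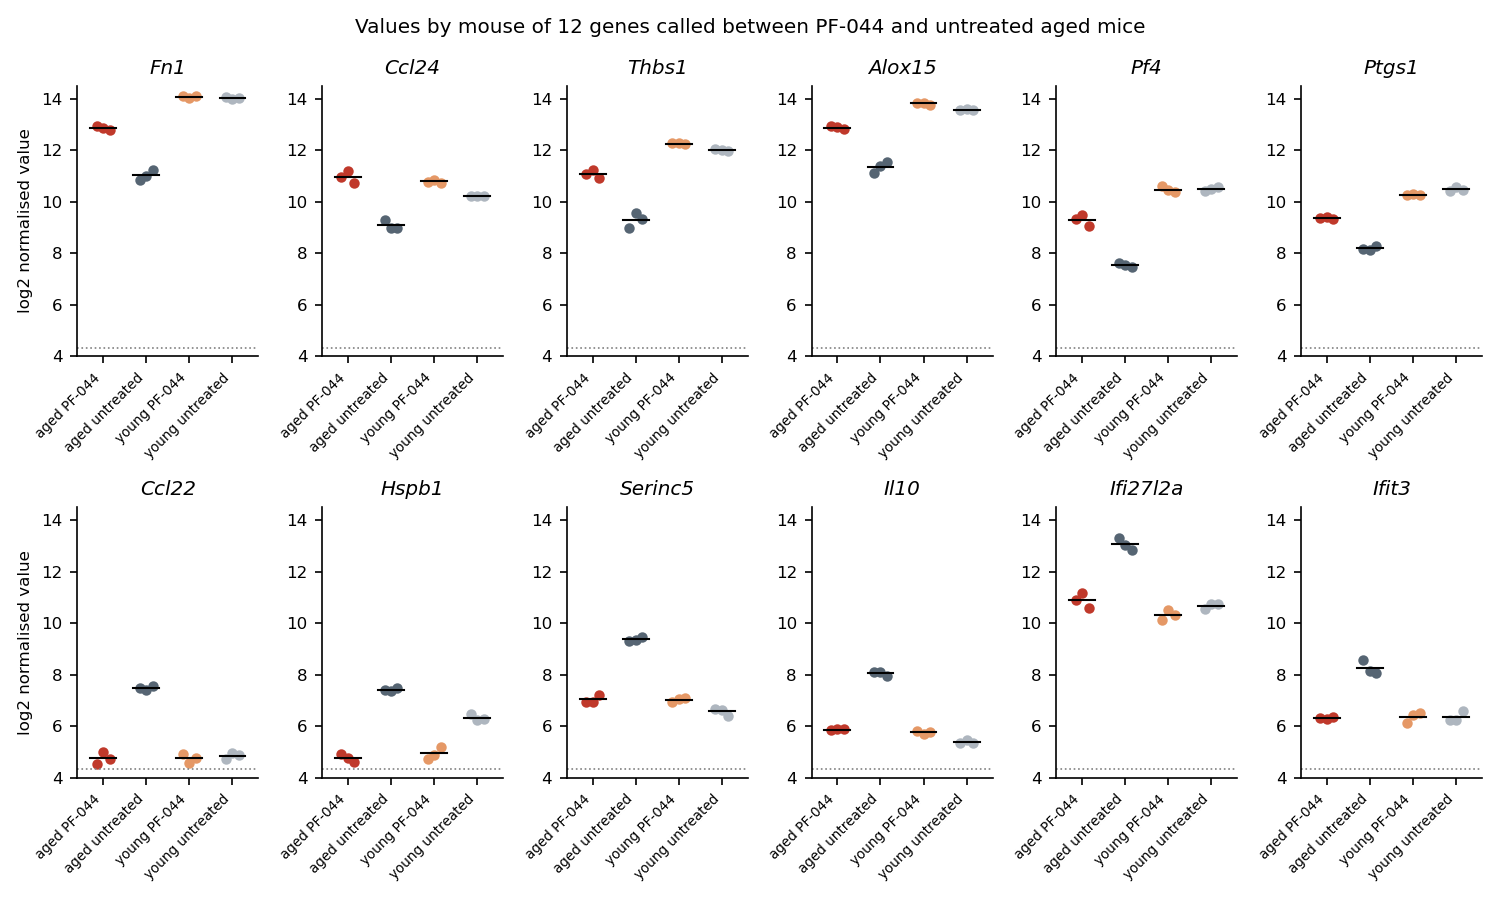
Log2 normalised value of 12 genes in each mouse (points; lines are group means; dotted line, the floor), with the groups in the order aged PF-044, aged untreated, young PF-044 and young untreated. In aged mice the first 6 genes are higher and the last 6 lower with PF-044, with no overlap of the groups, while the young groups lie closer together. The genes were chosen for their changes in aged mice, so their separation there is no separate evidence.

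Interferon-stimulated genes encode antiviral effectors and are induced through STAT and IRF factors. Among 18 such genes, 9 fell and 2 rose in aged PF-044 mice, with a median change of -0.77 against 0.02 over all tested genes. Without aged untreated mouse 2, 13 fell and 2 rose. Leaving out any other aged sample gave 8 or 9 falls, and falls numbered 10, 10 and 12 under median centring, reference centring and quantile normalization, and the median was negative under each (-0.90 and -0.92 after median centring and quantile normalization, and lower still after reference centring).

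The proximal promoters of Ifit1 and Ifit3 are shown because both genes fell strongly and both hold the core of the interferon-stimulated response element, GAAANNGAAA, searched on both strands. The sequences are RefSeq's (GRCm38.p6), from 250 bases before to 50 after the annotated start, and capitals mark the matches, which in both genes lie on the opposite strand. The Ifit1 window is chr19:34640639-34640938 and that of Ifit3 is chr19:34583279-34583578, both on the plus strand, and each held 2 matches.
Ifit1: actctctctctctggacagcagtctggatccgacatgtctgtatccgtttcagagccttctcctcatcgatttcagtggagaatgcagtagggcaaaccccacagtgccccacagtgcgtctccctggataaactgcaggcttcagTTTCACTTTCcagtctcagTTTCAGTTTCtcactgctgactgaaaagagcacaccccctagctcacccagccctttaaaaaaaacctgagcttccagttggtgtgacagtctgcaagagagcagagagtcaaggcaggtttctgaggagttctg
Ifit3: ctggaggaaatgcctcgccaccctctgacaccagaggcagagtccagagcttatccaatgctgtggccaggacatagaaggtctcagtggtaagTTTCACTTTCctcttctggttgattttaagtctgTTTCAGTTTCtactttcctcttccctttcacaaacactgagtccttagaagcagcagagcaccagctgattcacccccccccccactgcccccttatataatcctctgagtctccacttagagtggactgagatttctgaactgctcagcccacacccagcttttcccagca
The motif occurred in 7 of 12 interferon-stimulated genes with a promoter in the table (58.3%), in 9 of 139 genes called lower (6.47%), in 6 of 228 called higher (2.63%), in 45 of all 917 tested genes with a promoter (4.91%) and in 1131 of 32851 RefSeq promoters (3.44%). Matches and falls did not go together throughout the list. Ifit1bl1 and Oas1a also held matches and fell, but Irf7 and Ifit2 fell (changes -1.52 and -1.27) without a match. Stat2 held 1 match and rose by 0.55, and Isg15 and Cxcl10 held matches and did not pass. A match says only that these letters stand in this window. The motif and genes were chosen with the changes known.

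Ifit1, whose product binds viral RNA caps, measured 4.8, 4.41 and the floor in aged PF-044 mice, against 6.94, 6.51 and 6.33 in aged untreated mice. The third PF-044 mouse was at the floor. The gene fell by 2.09 (SE 0.18, limma adjusted p = 5.4e-06), and no longer passed once all samples were raised to a floor of 100. Ifit3, a partner of Ifit1, measured 6.33, 6.27 and 6.34 in aged PF-044 mice and 8.56, 8.12 and 8.07 in aged untreated mice, and fell by 1.93 (SE 0.17, adjusted p = 5.4e-06). In the young mice Ifit3 averaged 6.36 ± 0.20 with PF-044 and 6.35 ± 0.20 untreated (SD, n = 3 each). Ifi27l2a, a small interferon-induced membrane protein, measured 10.90, 11.17 and 10.59 in aged PF-044 mice, against 13.33, 13.04 and 12.86 in aged untreated mice. It fell by 2.19 (SE 0.16, adjusted p = 1.1e-06). Irf7, the transcription factor that amplifies type I interferon, measured 6.90, 6.78 and 7.06 in aged PF-044 mice and 8.53, 8.53 and 8.23 in aged untreated mice (change -1.52, SE 0.12). Iigp1, an interferon-inducible GTPase outside the list, fell by 1.36 (SE 0.21).

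The signalling route upstream of these targets had more rises than falls. Of 21 interferon receptor and signalling genes, 12 were called higher and 1 lower in aged PF-044 mice (median 0.44), and 13 and 2 without aged untreated mouse 2. Stat2, a transcription factor that stands in both lists, rose by 0.55 (SE 0.12), Irf2, a repressor of interferon targets, by 0.73 (SE 0.07), Irf1, an activator, by 0.44 (SE 0.05), and Stat6, the interleukin-4 signal transducer, by 0.44 (SE 0.05). Jak2, a cytokine receptor kinase, was the called gene that went the other way, at 9.52, 9.57 and 9.61 in aged PF-044 mice and 9.93, 9.95 and 10.07 in aged untreated mice (change -0.42, SE 0.05). After reference centring 5 were called higher and 1 lower, and the median was 0.31, 0.21 and 0.44 under median centring, reference centring and quantile normalization; Stat2, Irf1 and Irf5 no longer passed after centring on the reference genes.

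Antigen presentation genes were listed by class. Of 9 MHC class II genes, 5 fell and 0 rose (median -0.27), with 8 falls after median or reference centring and 3 after quantile normalization (median -0.15). In the deposited values the falls numbered 2 without aged PF-044 mouse 1 or 3 or aged untreated mouse 1 or 3, and 1 gene rose without aged untreated mouse 1. H2-Ab1, the beta chain of I-A, measured 12.31, 12.30 and 12.29 in aged PF-044 mice and 12.92, 12.84 and 12.98 in aged untreated mice. It fell by 0.62 (SE 0.05, limma adjusted p = 4.9e-06), and H2-DMb2, a chain of the peptide editor DM, fell by 0.40 (SE 0.07). Cd74, the invariant chain, changed by -0.27 (SE 0.11, adjusted p = 0.066). B cells carry these genes too, and the B cell marker sums given above, mostly Ms4a1, were also lower in aged PF-044 mice. The part of B cells was not tested.

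Of 12 MHC class I presentation genes, 2 fell, 1 rose and 9 did not pass, against 15.2% lower over all tested genes; 3 fell without aged untreated mouse 2 and 4 after median or reference centring. The classical heavy chains H2-K1 and H2-D1 fell by 0.54 (SE 0.06) and 0.40 (SE 0.07), while Psmb10, an immunoproteasome subunit, rose by 0.36 (SE 0.08) and no longer passed after centring on the reference genes. Of the 5 genes in the Fc gamma receptor list, 3 fell and 1 rose, with 2 rises without aged untreated mouse 1. Syk, the kinase downstream of Fc receptors, fell by 0.41 (SE 0.08), and Fcgr2b, the inhibitory receptor, fell by 0.56 (SE 0.12). Fcgr3, an activating low-affinity receptor, measured 9.36, 9.60 and 9.07 in aged PF-044 mice, against 8.81, 8.45 and 8.67 in aged untreated mice, and rose by 0.70 (SE 0.14, limma adjusted p = 0.002). The Fc receptor genes thus did not share a direction, and Fcgr3 and Fcgr4 differed in it with no overlap of the groups for either.

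**Figure D4:**
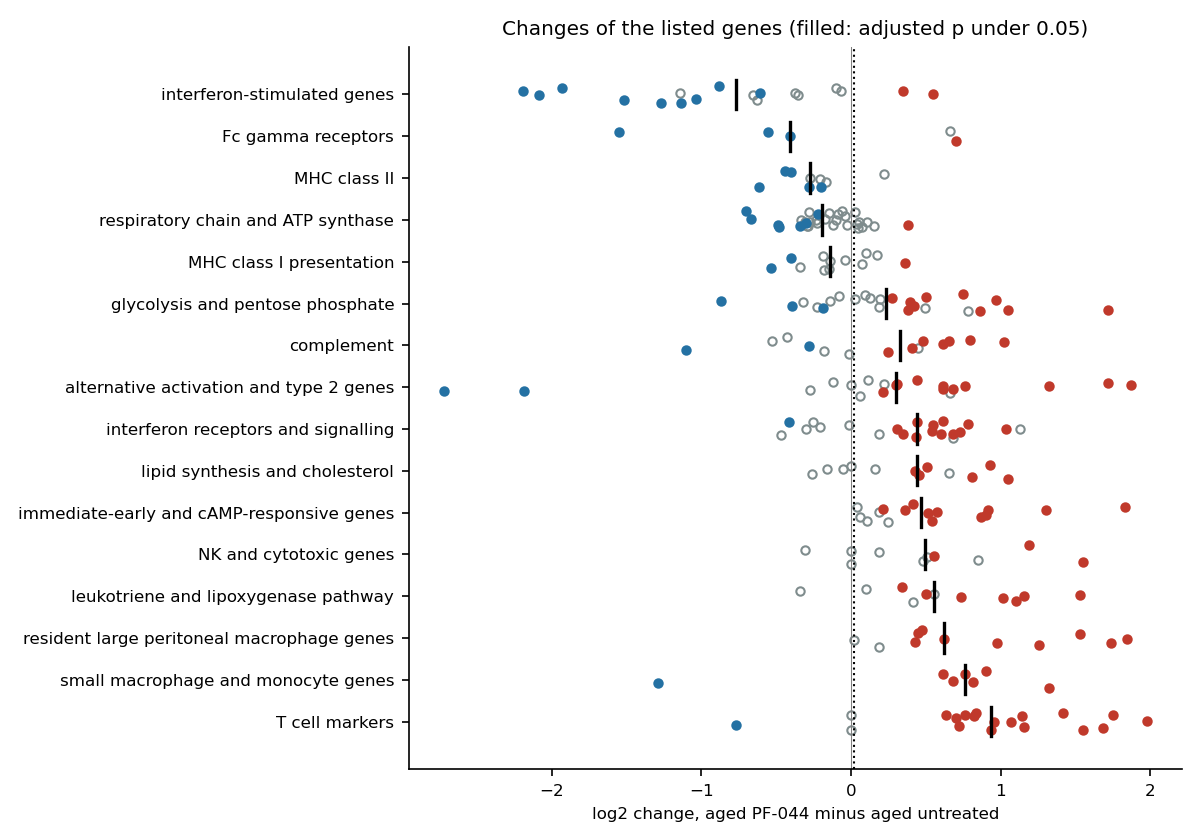
Log2 change between aged PF-044 and aged untreated mice for the genes of each list, one gene per point (filled red, called higher; filled blue, called lower; open, not past the test), with the list's median as a bar and the median of all tested genes as a dotted line. Interferon-stimulated genes lie mostly to the left, and resident and small macrophage genes and T cell markers mostly to the right.

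Genes that mark resident large peritoneal macrophages were examined next. Of 11, 9 rose and 0 fell in aged PF-044 mice (median 0.62), and 8 rose without aged untreated mouse 2; leaving out any other aged sample gave 7 to 9, and reference centring gave 5. Their summed linear level was 24170 to 27520 in aged PF-044 mice, against 11900 to 13180 in aged untreated mice and 42170 to 42800 in young untreated mice. Fn1, Pf4 and Alox15, described above, led the list, and Fn1 and Alox15 made up most of the summed level in aged PF-044 mice. Selp, the adhesion molecule P-selectin, measured 9.04, 8.88 and 8.93 in aged PF-044 mice and 7.72, 8.05 and 8.15 in aged untreated mice, and rose by 0.98 (SE 0.09, limma adjusted p = 9.5e-06). Itgam, the CD11b integrin chain, rose by 0.62 (SE 0.09), Tgfb2, the growth factor TGF-beta 2, by 0.45 (SE 0.08) and Adgre1, which encodes the F4/80 antigen, by 0.43 (SE 0.10); Tgfb2 and Adgre1 no longer passed after centring on the reference genes. Gata6, the factor that sets this cell's identity, measured 6.91, 6.99 and 6.89 in aged PF-044 mice, against 6.61, the floor and 6.09 in aged untreated mice. Its change of 1.26 (SE 0.43, adjusted p = 0.035) fell to 0.58 without aged untreated mouse 2, and it did not pass without any one of the aged PF-044 mice or without young untreated mouse 1. Timd4, a phosphatidylserine receptor of long-lived resident macrophages, changed by 0.02 (SE 0.10, adjusted p = 0.91), at 8.25, 8.18 and 8.09 in aged PF-044 mice and 8.21, 8.03 and 8.22 in aged untreated mice.

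Genes of the small, monocyte-derived macrophages also rose, 6 of 7 with 1 fall (median 0.76), with the same counts under every omission of an aged sample. Csf1r, the receptor for macrophage colony-stimulating factor, measured 9.16, 9.03 and 8.94 in aged PF-044 mice, against 8.12, 8.05 and 8.26 in aged untreated mice. It rose by 0.90 (SE 0.07, limma adjusted p = 2.2e-06). Ccr2, the monocyte chemokine receptor, rose by 0.82 (SE 0.14), Mrc1, the mannose receptor CD206, by 0.68 (SE 0.14), and Irf4, a factor of alternative activation, by 0.62 (SE 0.06). Ly6c1 was the gene that fell, at 9.65, 9.86 and 9.51 in aged PF-044 mice and 11.11, 10.85 and 10.93 in aged untreated mice. Both macrophage lists thus held called rises, and both medians stayed positive under each scaling (at least 0.39 for the resident genes and at least 0.53 for the small macrophage genes).

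Lymphocyte genes moved in both directions. Among 19 T cell markers, 16 rose and 1 fell (median 0.94), or 15 and 1 without aged untreated mouse 2, in which 12 of the 19 were at the floor. With all samples raised to a floor of 100, 8 of the 16 then tested rose and 1 fell, with a median of 0.25. Cd3e, part of the CD3 signalling complex, measured 7.52, 7.44 and 7.64 in aged PF-044 mice, against 6.28, 6.78 and 6.35 in aged untreated mice (change 1.07, SE 0.13). Cd28, the costimulatory receptor, rose by 1.14 (SE 0.11, limma adjusted p = 7.6e-06), Lck, the receptor-proximal kinase, by 0.82 (SE 0.11) and Cd3d by 0.64 (SE 0.11). The fall was of Ctla4, the inhibitory receptor that competes with CD28, at 9.88, 9.91 and 9.88 in aged PF-044 mice and 10.77, 10.59 and 10.62 in aged untreated mice (change -0.77, SE 0.06, adjusted p = 1.8e-06). Of 10 NK and cytotoxic genes, 3 rose and 0 fell, with 7 at the floor in aged untreated mouse 2 (5 rose without aged untreated mouse 1). Klrk1, which encodes NKG2D, rose by 1.19 (SE 0.17), beside Klrd1 above, and Nkg7, a granule protein, by 0.55 (SE 0.09).

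Of 7 B cell markers, 2 fell and 2 rose under every omission of an aged sample. Ms4a1, which encodes CD20, measured 14.17, 14.32 and 14.02 in aged PF-044 mice and 15.33, 15.20 and 15.11 in aged untreated mice. It fell by 1.04 (SE 0.17, limma adjusted p = 0.00051) but did not pass after quantile normalization. Blk, a B cell kinase, measured 10.10, 10.09 and 10.17 in aged PF-044 mice, against 10.80, 10.80 and 10.87 in aged untreated mice, and fell by 0.71 (SE 0.05). Btk, a kinase of B cells that myeloid cells carry too, rose by 0.55 (SE 0.05), and Fcer2a, the low-affinity IgE receptor CD23, rose by 1.15 (SE 0.15), or 1.11 without aged untreated mouse 2, with the untreated mice at 4.59 in mouse 1 and the floor in mice 2 and 3. The B cell markers thus moved in both directions, with a median change of -0.06. Their summed level was lower, but on the linear scale most of that sum is Ms4a1 alone.

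Among granulocyte markers, Fpr1, the formyl peptide receptor, measured 7.32, 7.45 and 7.20 in aged PF-044 mice, against 5.94, 6.25 and 5.94 in aged untreated mice, and rose by 1.28 (SE 0.17). The neutrophil list as a whole had 3 rises and 1 fall of 9 genes, or 2 and 2 without aged untreated mouse 2 and 2 or 3 rises and 0 falls without any other aged mouse. The fall was of S100a9 (change -1.12), a call lost without any aged mouse but untreated mouse 2, and without some young mice. The other rises were of Csf3r (1.32, or 0.86 without aged untreated mouse 2) and Mmp9 (0.74). Mmp9 did not pass without any one of the aged PF-044 mice or aged untreated mouse 2 or 3. Il5ra, the interleukin-5 receptor of eosinophils and some B cells, fell by 1.11 (SE 0.13, limma adjusted p = 4.2e-05), while Siglecf and Ccr3, more specific to eosinophils, lay at the floor in aged untreated mice 2 and 3 and did not pass. Of 10 mast cell and basophil markers, 5 rose and 0 fell; the count was 2 without aged PF-044 mouse 1 or 2, 7 and 4 without aged untreated mouse 1 or 2, and 1 after reference centring. Tpsb2, a mast cell tryptase, measured 9.66, 9.68 and 9.41 in aged PF-044 mice and 8.72, 8.76 and 8.94 in aged untreated mice (change 0.77, SE 0.08, adjusted p = 1.4e-05). Cpa3, mast cell carboxypeptidase, changed by 0.35 (SE 0.16, adjusted p = 0.1).

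The drug's target and its pathway were examined next. Ptger2, which encodes EP2, had values of 5.93, 5.90 and 5.79 in aged PF-044 mice, against 6.34, 6.32 and 5.92 in aged untreated mice. It did not pass (change -0.32, SE 0.19, limma adjusted p = 0.21), and its values in aged untreated mice 2 and 3 did not fall on the counting steps of their samples. In aged untreated mouse 2 the value was 80 on the linear scale, below that mouse's lowest on-step value for this gene set (91.42). How it was made is not given. Ptger4, which encodes EP4, the other cAMP-raising receptor, changed by 0.11 (SE 0.14, adjusted p = 0.55), and Ptgs2, the inducible cyclooxygenase, by 0.01 (SE 0.29), with values of 5.21, 5.19 and 4.98 in aged PF-044 mice and 5.47, the floor and 5.54 in aged untreated mice. Of 14 prostaglandin pathway genes, 2 rose and 1 fell, or 2 and 2 without aged untreated mouse 2 and 3 and 1 without aged untreated mouse 1.

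Ptgs1, the constitutive cyclooxygenase, measured 9.38, 9.41 and 9.31 in aged PF-044 mice, against 8.16, 8.11 and 8.29 in aged untreated mice. It rose by 1.18 (SE 0.06, limma adjusted p = 1.7e-07), 2.27-fold. Tbxas1, thromboxane synthase, measured 8.56, 8.54 and 8.45 in aged PF-044 mice and 7.85, 7.76 and 7.90 in aged untreated mice, and rose by 0.68 (SE 0.06). The fall was of Ptges, microsomal prostaglandin E synthase, at 5.45, 5.34 and 5.50 in aged PF-044 mice, against 6.18, 6.32 and 5.94 in aged untreated mice (change -0.72, SE 0.16, adjusted p = 0.0033). Its value in aged untreated mouse 2, 80 on the linear scale as for Ptger2, is off that sample's counting steps, and the change was -0.63 without that mouse.

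Of 11 enzymes and receptors of the lipoxygenase pathway, 7 rose, 0 fell and 4 did not pass (median 0.56), with 7 or 8 rises under every omission of an aged sample. The other scalings gave 6 rises, with 1 fall after quantile normalization. Alox5, the 5-lipoxygenase that starts leukotriene synthesis, measured 9.30, 9.23 and 8.97 in aged PF-044 mice, against 7.81, 8.09 and 8.29 in aged untreated mice. It rose by 1.10 (SE 0.11, limma adjusted p = 1.2e-05). Lta4h, which makes leukotriene B4, rose by 0.50 (SE 0.06), and Cmklr1, a receptor for chemerin, measured 9.18, 8.88 and 9.06 in aged PF-044 mice and 7.96, 8.13 and 7.99 in aged untreated mice (change 1.01, SE 0.07). Together with Alox15, these were the list's 4 genes of smallest p, so the separation of the groups in each follows from that choice. Over the whole list the PF-044 mice lay above all untreated mice in 7 of 11 genes, against 334 of all 1190 tested genes.

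EP2 acts through cAMP, so genes known to respond to it were listed. Of 16 immediate-early and cAMP-responsive genes, 11 rose and 0 fell in aged PF-044 mice (median 0.47), 10 without aged untreated mouse 2 and between 8 and 12 without any other aged sample, but 4 after reference centring. Nr4a1, the orphan nuclear receptor Nur77, measured 8.71, 8.69 and 8.98 in aged PF-044 mice, against 7.84, 7.92 and 7.91 in aged untreated mice. It rose by 0.90 (SE 0.09, limma adjusted p = 1.3e-05). Fos, the AP-1 subunit, measured 12.34, 12.34 and 12.42 in aged PF-044 mice and 11.68, 11.98 and 11.81 in aged untreated mice (change 0.54, SE 0.08). Ier3, an early response gene, rose by 0.57 (SE 0.11) and Dusp1, a phosphatase of MAP kinases, by 0.36 (SE 0.07), and both no longer passed after centring on the reference genes. Myc, listed here too, rose by 0.21 (SE 0.08, adjusted p = 0.044); it lost its call in 9 of the 12 omissions of single samples, aged and young, and its change was -0.0169 after centring on the reference genes. The list's median stayed positive under each scaling (0.34, 0.23 and 0.39).

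The promoters of Nr4a1 and Dusp1 are shown for the short core of the cAMP response element, TGACG, which was found in 10 of the 13 immediate-early genes with a promoter in the table (76.9%). It occurred in 68 of 228 genes called higher (29.8%), 49 of 139 called lower (35.3%), 279 of all 917 tested genes with a promoter (30.4%) and 6837 of 32851 RefSeq promoters (20.8%). The full palindrome TGACGTCA stood in 1 of the 13, Dusp1, and in 588 of 32851 promoters (1.79%). The window of Nr4a1 is chr15:101266596-101266895 on the plus strand, with 4 matches, all on the opposite strand, and that of Dusp1 is chr17:26508423-26508722 on the minus strand, with 3 matches, of which the palindrome gives 2 that overlap. Both are RefSeq sequences of GRCm38.p6, printed on the gene's strand, with the matches in capitals.
Nr4a1: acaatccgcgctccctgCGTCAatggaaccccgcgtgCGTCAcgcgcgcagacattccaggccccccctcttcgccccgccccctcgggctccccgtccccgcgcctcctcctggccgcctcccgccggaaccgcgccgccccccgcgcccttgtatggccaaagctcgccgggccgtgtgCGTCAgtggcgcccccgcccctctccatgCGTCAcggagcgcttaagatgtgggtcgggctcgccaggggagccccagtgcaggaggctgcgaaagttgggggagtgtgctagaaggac
Dusp1: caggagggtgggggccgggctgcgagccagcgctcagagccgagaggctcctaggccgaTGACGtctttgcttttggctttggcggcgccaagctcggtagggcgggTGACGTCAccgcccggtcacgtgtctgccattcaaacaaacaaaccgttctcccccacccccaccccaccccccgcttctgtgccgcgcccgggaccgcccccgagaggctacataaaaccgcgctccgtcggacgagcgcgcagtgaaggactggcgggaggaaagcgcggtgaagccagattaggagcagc
These genes rose by 0.90 and 0.36, as given above, and the match describes their sequence only. Fos, Fosb, Nr4a2 and Dusp2 also held matches and rose. Ier3 and Dusp6 rose without a match, and Egr2, Atf3, Klf4 and Ppargc1a held matches and did not pass.

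The components of cAMP signalling themselves were few in the table. Of 6 tested genes, 3 fell and 2 rose, or 1 rose without any one of the aged PF-044 mice or aged untreated mouse 3. Adora2a, the adenosine receptor that raises cAMP, measured 7.07, 7.32 and 7.37 in aged PF-044 mice, against 7.76, 7.88 and 7.86 in aged untreated mice (change -0.58, SE 0.12). Gnas, the stimulatory G protein, fell by 0.37 (SE 0.09) and Atf4, a stress-responsive relative of CREB, by 0.24 (SE 0.05, limma adjusted p = 0.0018). Rapgef4, the exchange factor Epac2, rose by 0.74 (SE 0.16), or 0.70 without aged untreated mouse 2, with the untreated mice at 4.59 in mouse 1 and the floor in mice 2 and 3. No common direction was seen across these genes.

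Cytokine genes fell and rose in like numbers. Of 13 pro-inflammatory cytokines, 3 rose and 3 fell, beside 25.7% higher and 15.2% lower over all tested genes, and 2 and 3 without aged untreated mouse 2. Beside Il1b and Il12a, Csf1, macrophage colony-stimulating factor, fell, at 5.46, 5.62 and 5.88 in aged PF-044 mice and 6.92, 6.58 and 6.65 in aged untreated mice (change -1.07, SE 0.18). Ltb, lymphotoxin beta, measured 10.84, 10.93 and 10.80 in aged PF-044 mice, against 10.25, 10.15 and 10.08 in aged untreated mice, and rose by 0.70 (SE 0.09, limma adjusted p = 8.2e-05). Il6 changed by 0.04 (SE 0.14, adjusted p = 0.88). Tnf, at 5.79, 5.95 and 5.63 in aged PF-044 mice and 5.43, the floor and 5.42 in aged untreated mice, passed with all samples (change 0.74, SE 0.27, adjusted p = 0.045), but not without any one of the PF-044 or young untreated mice, nor without aged untreated mouse 2, when its change was 0.37.

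The list of alternative activation genes held large changes in both directions. Of 20, 11 rose and 2 fell (median 0.30), or 10 and 3 without aged untreated mouse 2, and 7 and 2 after reference centring. Ccl24, Clec7a and Retnla rose and Ccl22 and Il10 fell, as given above. Arg1, arginase-1, which diverts arginine from nitric oxide, measured 8.50, 8.68 and 8.22 in aged PF-044 mice, against 7.90, 7.92 and 7.73 in aged untreated mice, and rose by 0.62 (SE 0.11, limma adjusted p = 0.0011). Nos2, its inducible competitor, lay at the floor in all 6 aged mice. Tgfb1 changed by 0.22 (SE 0.09, adjusted p = 0.078), and Ccl17, which shares its receptor with Ccl22, by 0.66 (SE 0.28, adjusted p = 0.079).

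Of 26 chemokine ligands, 6 rose and 1 fell, beside 25.7% higher and 15.2% lower over all tested genes. The rises numbered 9 and 5 without aged untreated mouse 1 or 2, and 4 without aged PF-044 mouse 2 or aged untreated mouse 3. Ccl5, a chemokine for T and NK cells, measured 11.31, 11.33 and 11.46 in aged PF-044 mice, against 10.22, 10.30 and 10.29 in aged untreated mice. It rose by 1.10 (SE 0.06, limma adjusted p = 2.7e-07). Of 15 chemokine receptors, 6 rose and 1 fell (0 without aged PF-044 mouse 1 or 2), and their median turned negative under median and reference centring. Ccr7, which guides dendritic cells and lymphocytes to lymph nodes, measured 10.16, 10.11 and 10.21 in aged PF-044 mice and 9.29, 9.33 and 9.29 in aged untreated mice. It rose by 0.86 (SE 0.07, adjusted p = 2.4e-06), while Cxcr4, the receptor of CXCL12, changed by 0.00 (SE 0.10). Of 17 interleukin receptors, 9 rose and 1 fell, but the rises numbered 2 without aged PF-044 mouse 1, 5 without aged PF-044 mouse 2 or 3 and 6 without aged untreated mouse 3. Without aged untreated mouse 2, 7 rose and 3 fell, and the balance turned to 3 rises and 4 falls after median centring and 2 and 4 after reference centring (5 and 3 after quantile normalization).

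Of 24 genes of the Toll-like receptor and NF-kB pathway, 7 rose and 4 fell, shares near the 25.7% and 15.2% over all tested genes. The counts were 8 and 5 without aged untreated mouse 2, 7 and 7 after median centring and 6 and 8 after reference centring. Among the transcription factor subunits, Nfkb2 measured 9.48, 9.48 and 9.57 in aged PF-044 mice, against 8.53, 8.81 and 8.59 in aged untreated mice (change 0.87, SE 0.08), and Nfkb1 rose by 0.58 (SE 0.07). The feedback regulators Nfkbiz and Tnfaip3 rose by 0.83 (SE 0.07) and 0.65 (SE 0.08, limma adjusted p = 5.8e-05). Among the receptors, Tlr7, an endosomal sensor of single-stranded RNA, measured 8.20, 8.25 and 7.77 in aged PF-044 mice and 9.28, 9.19 and 9.08 in aged untreated mice (change -1.11, SE 0.14). Ly96, the MD-2 subunit of the endotoxin receptor, fell by 0.89 (SE 0.15), while Cd14, the coreceptor, rose by 0.43 (SE 0.07) and no longer passed after centring on the reference genes. Of 10 inflammasome genes, 4 rose and 2 fell, and 2 rose without aged PF-044 mouse 1 or 2; 4 rose and 3 fell without aged untreated mouse 2, and 2 and 3 after reference centring. Nlrp3, the sensor, measured 6.20, 5.89 and 5.44 in aged PF-044 mice, against 4.79, the floor and 5.15 in aged untreated mice, and rose by 1.09 (SE 0.24), or 0.88 without aged untreated mouse 2; it no longer passed with all samples raised to a floor of 100. Casp1, the inflammasome protease, fell by 0.43 (SE 0.15, adjusted p = 0.033) but did not pass without aged PF-044 mouse 3 (change -0.25) or without aged untreated mouse 1 or 3.

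Among TNF superfamily genes, 5 of 19 rose and 2 fell, shares near the 25.7% and 15.2% over all tested genes. The rises numbered 10 without aged untreated mouse 1. The falls numbered 3 without aged untreated mouse 2, and 3 rose and 3 fell after reference centring. Tnfrsf1a, a receptor for TNF, measured 7.62, 7.49 and 7.54 in aged PF-044 mice, against 6.85, 7.12 and 6.37 in aged untreated mice (change 0.77, SE 0.16). Cd27, a receptor on T cells, rose by 1.68 (SE 0.35), or 1.14 without aged untreated mouse 2, in which it was at the floor. Of 15 costimulatory and checkpoint genes, 6 fell and 3 rose (1 rose after reference centring). Cd274, which encodes PD-L1, measured 9.45, 9.42 and 9.36 in aged PF-044 mice and 9.89, 9.89 and 10.03 in aged untreated mice, and fell by 0.52 (SE 0.05, limma adjusted p = 1.5e-05). Btla, an inhibitory receptor, fell by 0.80 (SE 0.08), Cd86 by 0.42 (SE 0.10) and Cd47, the signal that restrains phagocytosis, by 0.58 (SE 0.07). Icosl, the ligand of ICOS, rose to 6.95, 6.98 and 6.97 in aged PF-044 mice, against 5.63, the floor and 5.89 in aged untreated mice (change 1.69, SE 0.32, and 1.21 without aged untreated mouse 2).

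Phagocytic and complement genes were also divided. Of 15 scavenger and phagocytic receptors, 6 rose and 3 fell, with 5 rises without aged untreated mouse 2. Marco, a receptor for bacteria and particles, measured 9.32, 9.51 and 9.16 in aged PF-044 mice, against 10.41, 10.05 and 10.29 in aged untreated mice, and fell by 0.92 (SE 0.11), while Cd68, a lysosomal glycoprotein, rose by 0.65 (SE 0.08, limma adjusted p = 6.3e-05). Of 14 complement genes, 7 rose and 2 fell (median 0.33), or 5 and 2 without aged untreated mouse 2, with 1 fall without aged PF-044 mouse 2 or 3 or aged untreated mouse 1. After reference centring 3 rose and 3 fell. C3ar1, the receptor for C3a, rose by 0.79 (SE 0.08), Cd55, an inhibitor of complement on the cell surface, by 0.65 (SE 0.05) and C1qb, a chain of C1q, by 0.62 (SE 0.08). Cfb, factor B of the alternative pathway, measured 8.89, 8.98 and 8.75 in aged PF-044 mice and 9.93, 10.09 and 9.91 in aged untreated mice, and fell by 1.11 (SE 0.09, adjusted p = 2.1e-06).

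Metabolic genes were examined by pathway. Of 24 glycolysis and pentose phosphate genes, 10 rose and 3 fell (median 0.24), and 11 and 2 without aged untreated mouse 2. The balance turned to 3 rises and 7 falls after reference centring, with 9 and 5 after median centring. Eno1, enolase, measured 10.10, 10.12 and 10.05 in aged PF-044 mice, against 9.18, 8.91 and 9.04 in aged untreated mice, and rose by 1.05 (SE 0.06, limma adjusted p = 2.9e-07). Pkm, pyruvate kinase, rose by 0.50 (SE 0.07), Slc16a3, the lactate exporter MCT4, by 0.75 (SE 0.11) and Taldo1, transaldolase, by 0.39 (SE 0.05), of which Pkm and Taldo1 no longer passed after centring on the reference genes. H6pd, the pentose phosphate dehydrogenase of the endoplasmic reticulum, measured 8.07, 7.75 and 7.88 in aged PF-044 mice and 8.71, 8.72 and 8.87 in aged untreated mice, and fell by 0.87 (SE 0.09). Hif1a fell by 0.19 (SE 0.04, adjusted p = 0.0054), a call lost after quantile normalization. The list's median was 0.11, 0.01 and 0.15 under the other scalings.

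Of 32 respiratory chain and ATP synthase genes, 7 fell and 1 rose (median -0.19), or 9 and 1 without aged untreated mouse 2, and the falls ranged from 5 to 10 over the omissions of each aged sample. Uqcr10, a subunit of complex III, measured 10.29, 10.50 and 10.04 in aged PF-044 mice, against 11.12, 10.95 and 10.85 in aged untreated mice (change -0.70, SE 0.12). Cox6b1, a subunit of complex IV, fell by 0.67 (SE 0.10) and Ndufa3, a subunit of complex I, by 0.49 (SE 0.09). In the deposited values 24 did not pass, but 16 fell after median centring, 21 after reference centring and 13 after quantile normalization, with 0 rises in each. Of 21 TCA cycle and pyruvate genes, 4 fell and 2 rose, beside 15.2% lower and 25.7% higher over all tested genes. The falls numbered 7 and 8 after median and reference centring. Mpc1, a subunit of the mitochondrial pyruvate carrier, fell by 0.67 (SE 0.10, limma adjusted p = 0.00018), and Pdk4, which switches off pyruvate dehydrogenase, by 1.28 (SE 0.25), whereas Cs, citrate synthase, rose by 0.52 (SE 0.05).

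Of 12 lipid synthesis genes, 6 rose, 0 fell and 6 did not pass (median 0.44). Median centring gave 5 rises and 2 falls, and reference centring 2 and 2. Srebf1, the transcription factor that induces the pathway's enzymes, measured 7.76, 7.53 and 7.59 in aged PF-044 mice, against 6.77, 6.63 and 7.04 in aged untreated mice, and rose by 0.81 (SE 0.14, limma adjusted p = 0.00059). Fasn, fatty acid synthase, rose by 0.45 (SE 0.10), while Scd1, stearoyl-CoA desaturase, changed by -0.05 (SE 0.06). Apoe, the lipoprotein of cholesterol efflux, rose by 0.43 (SE 0.09), and Fasn and Apoe no longer passed after centring on the reference genes. Leaving out single aged samples gave 4 to 6 rises.

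Of 18 arginine, polyamine and glutamine genes, 5 fell and 3 rose (7 and 3 without aged untreated mouse 2, and 6 and 1 after reference centring). Odc1, ornithine decarboxylase, measured 9.94, 9.97 and 9.999 in aged PF-044 mice, against 10.86, 10.90 and 10.89 in aged untreated mice. The spread within groups was under 0.1 log2 units, and the fall was 0.92 (SE 0.05, limma adjusted p = 2.7e-07). Oat, ornithine aminotransferase, fell by 0.83 (SE 0.09), and Glul, glutamine synthetase, by 0.56 (SE 0.07). In the tryptophan and NAD list (9 genes, 2 rises, or 3 without aged untreated mouse 2, and 1 fall), Haao and Kmo, enzymes of the kynurenine route to NAD, rose by 0.93 (SE 0.10) and 1.05 (SE 0.12), and Nampt, of NAD salvage, fell by 0.50 (SE 0.11). Of 23 serine, one-carbon and nucleotide genes, 7 rose and 4 fell, beside 25.7% higher and 15.2% lower over all tested genes. The counts were 4 to 9 and 3 to 5 over the omissions of single aged samples (6 and 5 without aged untreated mouse 2). The balance turned to 3 and 6 after median centring, 2 and 7 after reference centring and 4 and 5 after quantile normalization. Cad, which starts pyrimidine synthesis, measured 8.14, 7.997 and 8.24 in aged PF-044 mice and 6.90, 7.17 and 7.16 in aged untreated mice (change 1.05, SE 0.09). Serinc3, a relative of Serinc5, fell by 0.86 (SE 0.07, adjusted p = 1.8e-06), while Serinc1 changed by -0.16 (SE 0.10, adjusted p = 0.22).

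In the insulin and Akt pathway, 8 of 25 genes rose and 3 fell (1 without aged PF-044 mouse 3), beside 25.7% higher and 15.2% lower over all tested genes. After reference centring 4 rose and 5 fell. Akt1 and Akt2 changed by -0.04 (SE 0.06) and 0.03 (SE 0.19). Pik3cd, the leukocyte phosphoinositide 3-kinase, measured 9.78, 9.67 and 9.87 in aged PF-044 mice, against 8.98, 9.22 and 9.19 in aged untreated mice, and rose by 0.65 (SE 0.08, limma adjusted p = 8.7e-05), and Sesn1, a stress-induced brake on mTORC1, fell by 0.83 (SE 0.10). Of 13 proliferation genes, 2 rose and 1 fell (0 without aged PF-044 mouse 3, and 2 without aged untreated mouse 3); 3 fell under each other scaling. Ccnd1, cyclin D1, rose by 0.67 (SE 0.11) and Mki67, the Ki-67 antigen, by 0.63 (SE 0.12).

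Adhesion genes included 8 rises and 3 falls of 15, or 6 and 3 without aged untreated mouse 2 and 4 and 3 after reference centring. Itgb2, the beta chain shared by leukocyte integrins, measured 12.03, 12.01 and 11.89 in aged PF-044 mice, against 11.005, 11.21 and 11.20 in aged untreated mice, and rose by 0.83 (SE 0.07, limma adjusted p = 2.6e-06). Itgb1 and Itgb7, other beta chains, fell (changes -0.57, SE 0.11, and -0.51, SE 0.09), and F11r, a junctional adhesion molecule, fell by 1.05 (SE 0.17). The beta chains thus differed in direction. Of 17 heat shock and oxidative stress genes, 3 rose and 4 fell, with 2 rises without aged untreated mouse 2 and 6 to 9 falls under the other scalings. Beside Hspb1, Gpx4, which detoxifies lipid peroxides, fell by 0.59 (SE 0.15).

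Some genes were above the floor in all 3 aged PF-044 mice and at it in all 3 aged untreated mice. There were 14 such genes, 8 of them called: Fcrls, a scavenger-type Fc receptor relative, Cxcr3, a T cell chemokine receptor, Cd163, the haemoglobin scavenger receptor, Fscn1, the actin bundler fascin, and Tpsab1, Gata2, Loxl2 and Hgf. Fcrls measured 5.71, 5.66 and 5.52 in aged PF-044 mice, and the mean of Cxcr3 there was 5.22. These levels lie below the lowest on-step value of aged untreated mouse 2, which was 6.25 or more on the log2 scale in every gene set, so no fold or bound is given. The calls treat each untreated mouse as having the floor value. The genes were also chosen by these same values, so the calls are no separate evidence of a change. After centring on the reference genes, Cd163, Gata2, Loxl2, Tpsab1 and Hgf no longer passed, Tpsab1 and Hgf did not pass without aged PF-044 mouse 1 or 2, and Fcrls and Gata2 did not pass with all samples raised to a floor of 100.

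The same treatment in young mice gives the measure of what differed with age. In young mice 168 genes passed (14.1%), 100 higher and 68 lower. Of these, 113 were called in aged mice too, which is 23.2% of the aged calls and 67.3% of the young calls, 73 in the same direction (45 higher and 28 lower) and 40 in opposite directions (21 higher and 19 lower in aged mice). The aged effect minus the young effect, tested directly, passed for 306 genes (25.7%), 178 above and 128 below zero, and all 40 opposite genes were among them. Without aged untreated mouse 2 the difference passed for 363 genes, 291 of them shared. Over the tested genes the effects correlated with Pearson's r of 0.255 and Spearman's rho of 0.266, as a description across genes of 1 table, which are not independent.

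Ccr7 rose by 0.86 in aged mice and fell by 1.02 in young mice, where it averaged 9.73 ± 0.14 with PF-044 and 10.75 ± 0.08 untreated (SD, n = 3 each), a difference of 1.88 (SE 0.10, limma adjusted p = 5.7e-07). Serinc5 fell by 2.34 in aged mice and rose by 0.46 (SE 0.11) in young mice (difference -2.80, SE 0.16). Ptgs1 rose by 1.18 in aged mice, against a change of -0.21 (SE 0.06, adjusted p = 0.036) in young mice (difference 1.39, SE 0.08). Il10 fell by 2.18 in aged mice and changed by 0.38 (SE 0.13, adjusted p = 0.087) in young mice, where levels averaged 5.76 ± 0.06 with PF-044 and 5.38 ± 0.07 untreated. Il1b, with the limit on its aged untreated values given above, changed by 0.82 (SE 0.22, adjusted p = 0.03) in young mice, a difference of -2.45 (SE 0.31). Fn1 and Pf4 had young changes of 0.06 (SE 0.09) and -0.03 (SE 0.10), with differences of 1.79 (SE 0.13) and 1.76 (SE 0.14).

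Several falls were seen at both ages. Hspb1 fell by 1.39 (SE 0.17) in young mice, to a mean of 4.94 ± 0.23 with PF-044, against 6.33 ± 0.14 untreated (SD, n = 3 each), and the difference between the ages passed too (-1.27, SE 0.24, limma adjusted p = 0.0025). Cfb fell by 1.19 in young mice, against 1.11 in aged mice, and the difference of 0.09 did not pass (adjusted p = 0.64). Fcgr4 fell by 0.94 in young mice (difference -0.61, SE 0.21, adjusted p = 0.057), and Jak2 by 0.42 in both. Nr4a1 rose by 0.68 in young mice, and its difference of 0.23 (SE 0.13) did not pass. By list, the difference passed for 9 of 18 interferon-stimulated genes, of which 1 was called in young mice, and for 9 of 11 resident macrophage genes, of which 5 fell in young mice.

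**Figure D5:**
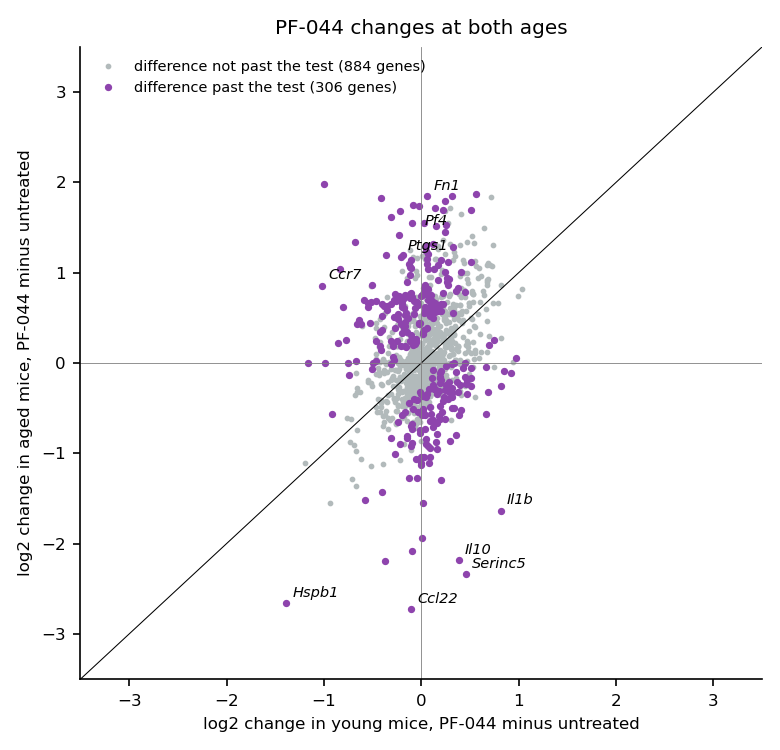
Log2 change with PF-044 in aged mice (vertical) against that in young mice (horizontal) for 1190 genes, with the 306 whose difference passed in purple and the line of equality. Serinc5, Il10, Il1b and Ccl22 lie far below the line, Fn1, Pf4, Ptgs1 and Ccr7 above it, and Hspb1 falls at both ages.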

How the data were processed

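Peritoneal macrophage RNA of 12 mice in 4 groups of 3 was measured. The deposited values are on the log2 scale, as the values themselves show. limma is listed, without a version, in the submitters' processing notes. The sources used here do not state the scaling, background or floor settings. Raw counts were not analysed here.

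The deposited log2 values were used as they stand. The 258 genes at the floor of 20 in all 12 samples were left out, 1190 were tested and 29 of these were at the floor in all 6 aged samples. With R 4.3.3, limma 3.58.1 (lmFit and contrasts.fit, then eBayes using a mean-variance trend) fitted a coefficient per group over 12 samples (8 residual and 3.27 prior degrees of freedom). Tests were two-sided with Benjamini-Hochberg adjustment over all tested genes at 0.05. Changes are PF-044 minus untreated, with the fit's standard error (SE). An exact permutation test of 3 against 3 cannot go below p = 0.1 and was not used. The fit was tested on simulated data.

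Genes, lists, motifs and alternatives were chosen with earlier results of these data known. Genes named are the 15 largest rises and falls that passed with and without aged untreated mouse 2, up to 4 members per list by p, up to 2 of its called members of the opposite direction and 2 of the highest level, a set around EP2, genes at the floor in all mice of an aged group, and the 10 most secure differences between the ages. Foxp3, Tbx21, Ncr1 and Gzma were named after their values were seen. Same-numbered aged samples deviated from their group means with correlations of 0.0809, -0.063 and 0.347, so the numbers were not treated as pairs. Promoters are RefSeq's of GRCm38.p6 (917 of the 1190 genes matched by symbol). Alternatives left out samples or changed the floor, the filter, the pseudocount, the scaling, the moderation or the weights. Results for some genes are not reported here.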

Additional observations from a re-analysis of the deposited data

Results flagged for a closer look

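The 10 most secure differences between the PF-044 effect in aged mice and that in young mice, by the test of the difference itself, were these, each as the aged change minus the young change in log2 units. The difference was 1.88 for Ccr7, 1.39 for Ptgs1, 1.22 for Ccl5, 1.79 for Fn1 and 1.76 for Pf4, all higher in aged mice. It was -2.8 for Serinc5, -2.57 for Il10, -1.16 for Serinc3, -1.07 for Cd180 and -0.99 for Odc1. For Cd180, a relative of Toll-like receptors on B cells and macrophages, values were 11.28, 11.26 and 11.22 in aged PF-044 mice, against 11.45, 11.48 and 11.59 in aged untreated mice (change -0.25, SE 0.05), while it rose by 0.82 in young mice. Ccr7, Serinc5, Serinc3, Ptgs1 and Cd180 passed in opposite directions at both ages.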

How the results depend on the processing

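Leaving out each sample in turn gave 235 to 353 higher and 148 to 220 lower calls in aged mice, 255 to 363 calls for the difference between the ages, 101 to 237 calls in young mice (lowest without young PF-044 mouse 1, with 111 without young untreated mouse 3), 45 to 109 rises over 2-fold (lowest without aged untreated mouse 2, highest without mouse 1) and 23 to 39 falls over 2-fold. After centring on the reference genes, 158 genes were called higher and 295 lower, 107 passed in young mice, and rises and falls over 2-fold numbered 38 and 52. Rises over 2-fold numbered 47 with the floor values of aged untreated mouse 2 missing, 24 with a common floor of 100, 27 among genes above the floor in all 6 aged samples and 16 with a pseudocount of 50; falls numbered 16 with the common floor and 14 with the pseudocount, settings that compress low values by construction. Sample weights, lowest in aged untreated mice 1 (0.0934) and 2 (0.176), gave 388 calls in young mice. Fitting only the 6 aged samples gave 218 higher and 154 lower calls. H2-Aa turned to 0.0803 after quantile normalization, and Myc to -0.0169 after centring on the reference genes; the cause was not tested. With the replicate number as a block, 312 genes were called higher and 190 lower in aged mice, 319 for the difference and 166 in young mice, with 79 rises and 29 falls over 2-fold. The numbers do not pair these samples. The raised detection limit of aged untreated mouse 2 limits every gene below 75.94, 93.03 or 91.42 on the linear scale, by gene set, in that mouse.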
